A study of Mustela putorius furo and Mus musculus with 4 samples.

Results

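*Bmp7* is 1 of the 17170 genes in the mouse single-cell count table, and its UMIs (unique molecular identifiers, each standing for 1 captured RNA molecule) were followed across cell classes, between the *Smo* genotypes and against the genes detected in the same radial glial cells. It was taken by its gene symbol alone. The cells came from the cortex of CD1 mouse embryos at E18.0, a day after CellTrace Yellow had been injected into the lateral ventricle, and the dissociated cells were sorted before droplet capture. The dye marks cells that were dividing at the ventricular surface, so the injection and the sort set which cells were present. One library came from *hGFAP-Cre*;*Smo* F/F embryos (*Smo*-cKO), in which *hGFAP-Cre* deletes the floxed *Smo* alleles in cortical radial glial (RG) cells and their progeny. The other came from littermates that the labels call wild type and the study calls *Smo* F/F, without *hGFAP-Cre* (control). The ferret ortholog was not analysed here.

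BMP7 is a secreted ligand of the bone morphogenetic protein family that is cleaved from a precursor by proprotein convertases. It binds type I and type II receptor kinases, which phosphorylate SMAD1, SMAD5 and SMAD9, and these enter the nucleus with SMAD4 and raise transcription of *Id* genes. Antagonists such as Noggin, Chordin and Follistatin bind BMP ligands outside the cell. In the late embryonic cortex BMP signaling and Sonic hedgehog (SHH) signaling, which requires the membrane protein SMO, both act on RG cells during the passage from neuron to glia production, and the study compared these genotypes to ask how loss of SMO bears on *Bmp7* in RG cells.

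Mouse *Bmp7* (ENSMUSG00000008999.7) lies on the minus strand of chromosome 2, positions 172868012 to 172940321 of GRCm38. The annotation gives it a coding transcript of 7 exons, 3670 bases long with 1290 coding bases, and a retained-intron transcript of 2 exons. It overlaps 0 other annotated genes. The counts are per gene, so they do not tell the transcripts apart.

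The control library held 10524 cells and the *Smo*-cKO library 7596, of which 10498 and 7209 had 750 to 5000 genes detected and under 10% of UMIs from mitochondrial genes. The kept cells held a median of 4033.5 UMIs in control and 4836 in *Smo*-cKO. With 1 library per genotype the genotypes were not tested against each other, and genotype, embryo and preparation cannot be told apart. All intervals are 95% intervals and cover counting error only. Column names carry no genotype: a cell's genotype was read from its barcode suffix by the number of cells with that suffix, and if this were wrong every direction would be reversed. The gene that Cre deletes and the targets of its pathway gave a check. *Smo* had 258 UMIs in control RG cells and 6 in *Smo*-cKO RG cells, and was detected in 7.89% and 0.303% of them. The SHH targets *Gli1* (100 and 1 UMIs), *Ptch1* (461 and 43) and *Hhip* (43 and 0) were lower in the same library. The 2 suffixes shared 28 barcodes.

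Each cell took the class with most of its marker genes detected, with at least 3 markers and a lead of at least 2 over any other class. This rule named 3091 control and 1981 *Smo*-cKO cells as RG cells from *Slc1a3*, *Hes5*, *Hes1*, *Sox9*, *Pax6*, *Aldoc*, *Tnc*, *Mfge8*, *Ddah1* and *Nes*. Pyramidal neuron intermediate progenitors (PyN-IPCs, from *Eomes*, *Neurog2* and their partners) numbered 2089 and 982, and pyramidal neurons (PyNs) 947 and 1079. Interneurons numbered 74 and 229, and microglia 87 and 156. Of the kept cells 39.3% in control and 38.1% in *Smo*-cKO met no class and stayed unassigned. No doublet caller was run.

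*Bmp7* was a sparse transcript that lay mainly in RG cells in both genotypes. Of its 182 UMIs in control, 149 (81.9%) were in RG cells, and of its 347 UMIs in *Smo*-cKO, 301 (86.7%) were. The RG cells held 36.4% of all UMIs of the control library, so the concentration of *Bmp7* there was beyond their share of the sequencing. Most cells in which it was found had a single UMI: 128 of the 137 positive control RG cells and 246 of the 272 positive *Smo*-cKO RG cells. A further 8 and 23 cells had 2 UMIs, 3 *Smo*-cKO cells had 3, and 1 control cell had 5. A cell without a UMI therefore cannot be taken as a cell without *Bmp7* RNA.

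In control RG cells *Bmp7* was detected in 4.43% of cells (3.73 to 5.22) at 7.92 UMIs per 1000000 UMIs (CPM, 6.70 to 9.30). In *Smo*-cKO RG cells it was detected in 13.7% (12.2 to 15.3) at 18.4 CPM (16.4 to 20.6). The neuronal lineage stood well below. PyN-IPCs had 5 UMIs at 0.502 CPM (0.163 to 1.17) in control and 7 UMIs at 1.32 CPM (0.531 to 2.72) in *Smo*-cKO. PyNs had 2 UMIs at 0.565 CPM and 8 UMIs at 1.64 CPM. These neighbours in the order did not differ beyond counting error: the ratio of PyN to PyN-IPC was 1.12 (0.107 to 6.87) in control and 1.24 (0.394 to 4.03) in *Smo*-cKO. RG cells exceeded PyN-IPCs 15.8-fold (6.61 to 49.3) in control and 14-fold (6.69 to 35.0) in *Smo*-cKO.

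Cell types of other origins show what free RNA in the droplets could give, but they were few. Interneurons had 0 *Bmp7* UMIs in both libraries, which by a 3-cell limit allows 4.05% of 74 and 1.31% of 229 cells to have a UMI (exact upper bounds 4.86% and 1.60%) at median depths of 2851 and 3060 UMIs. Microglia, which were deeper than RG cells (median 7944 and 7718.5 UMIs), had 1 UMI in 87 control cells (1.15%) and 0 in 156 *Smo*-cKO cells (3-cell limit 1.92%, exact upper bounds 6.24% and 2.34%). The shares in PyN-IPCs (0.239% and 0.713%) and PyNs (0.211% and 0.649%) lay below these bounds and are not read as expression. The *Smo*-cKO RG share lay above the bounds of its library. The control RG share lay within those of control, so that the interneurons and microglia of control were too few to set it apart from background, and the lower shares in the many PyN-IPCs and PyNs are the comparison that remains. No cell met the meningeal, choroid plexus or ependymal rule, and *Ttr*, which defines choroid plexus epithelium, had 2 UMIs in all control RG cells and 0 in all *Smo*-cKO RG cells. The remaining classes had too few cells to order against RG cells. Multipotent intermediate progenitor cells (MIPCs, from *Egfr*, *Olig1* and *Olig2* among others) had 2 UMIs in 34 control cells, which is 8.06 CPM (0.977 to 29.1) and as high as RG cells, and 0 UMIs in 7 *Smo*-cKO cells. Control endothelial cells stood at 6.62 CPM (0.168 to 36.9) and Cajal-Retzius cells at 7.54 CPM (0.191 to 42.0), each on 1 UMI, and 1 of 4 *Smo*-cKO Cajal-Retzius cells had 1 UMI.

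**Figure D1:**
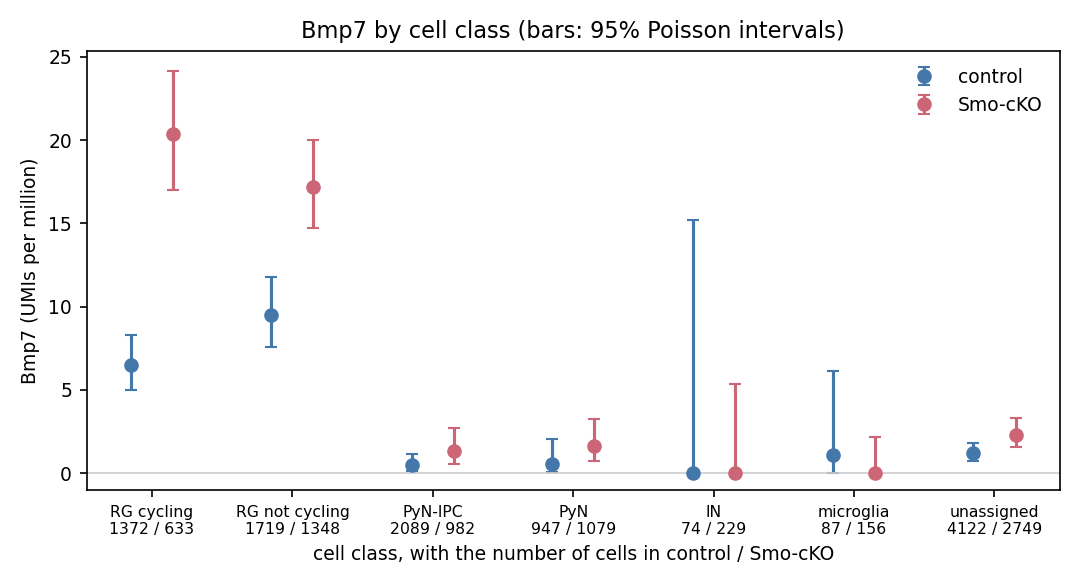
*Bmp7* level in CPM with exact Poisson 95% intervals in the control and *Smo*-cKO libraries. The classes are cycling and non-cycling RG cells, PyN-IPCs, PyNs, interneurons, microglia and unassigned cells. Cycling RG cells stand at 6.48 CPM in control and 20.4 CPM in *Smo*-cKO, and non-cycling RG cells at 9.52 and 17.2 CPM. PyN-IPCs, PyNs, interneurons and microglia all lie below 2 CPM.

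The level in *Smo*-cKO RG cells was 2.33-fold that in control RG cells (1.91 to 2.85), and the share of positive cells was higher by 9.30 percentage points (7.65 to 11). Part of the gap in shares goes with depth, since the median RG cell held 5214 UMIs in control but 7593 in *Smo*-cKO. With every cell brought to 2900 UMIs the shares were 2.37% of 2871 cells and 5.2% of 1849 cells. Across all 11901 genes with at least 50 UMIs in RG cells, 6.61% had a ratio of at least 1.5 and 5.5% a ratio of at most 1/1.5, the median ratio was 0.989, and *Bmp7* ranked 214th from the top. Its ratio was thus among the top 1.80% of genes between these libraries, but over 200 genes had a higher ratio.

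Other marker sums within RG cells also differed between the libraries. The summed level of the 8 microglial markers within RG cells was 3.77 CPM in control and 14.7 CPM in *Smo*-cKO, while that of the erythroid markers was 273 and 53.9 CPM, and that of the cycling markers 2399 and 1607 CPM. Microglia themselves held 1 *Bmp7* UMI between the libraries. The summed RG markers were 4744 CPM in control and 5695 CPM in *Smo*-cKO, and the part of this in the *Bmp7* ratio was not tested. Outside RG cells *Bmp7* was also higher in *Smo*-cKO, at 1.79 against 1.00 CPM (ratio 1.78, 1.11 to 2.87), on 46 and 33 UMIs, most of them in unassigned cells (30 and 21 UMIs).

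Cycling RG cells, those with at least 3 of 10 cycling markers such as *Mki67* and *Top2a*, carried the wider gap between genotypes. Control had 64 *Bmp7* UMIs in 1372 cycling RG cells (6.48 CPM), and *Smo*-cKO had 131 in 633 (20.4 CPM), a ratio of 3.14 (2.31 to 4.31). Non-cycling RG cells had 85 UMIs in 1719 control cells (9.52 CPM) and 170 in 1348 *Smo*-cKO cells (17.2 CPM), a ratio of 1.81 (1.38 to 2.37). Within control the non-cycling cells had the higher level, 1.47-fold that of cycling cells (1.05 to 2.07). Within *Smo*-cKO the same ratio was 0.845 (0.669 to 1.07), an interval that includes 1. The first of these ratios was 1.74 times the second (1.17 to 2.59, counting error only). Positive cells numbered 4.15% of cycling and 4.65% of non-cycling control RG cells, against 18.5% and 11.5% in *Smo*-cKO. Brought to 2900 UMIs, 1.81% of cycling RG cells were positive in control and 6.05% in *Smo*-cKO. The non-cycling shares were then 2.86% and 4.80%. Cycling RG cells were deeper than non-cycling ones, with medians of 6322.5 against 4663 UMIs in control and 9702 against 6979 in *Smo*-cKO. The part of depth in the CPM ratios of non-cycling to cycling cells was not tested.

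Depth within the RG class was examined in 4 bins chosen after the data were seen. The control level was 11.7 CPM in cells under 4000 UMIs and 8.21, 5.61 and 6.94 CPM in the deeper bins. The *Smo*-cKO level was 15.9, 17.6, 21.2 and 16.4 CPM. The ratio was above 1 in each bin, at 1.36 (0.462 to 3.32), 2.15 (1.58 to 2.92), 3.77 (2.42 to 6.13) and 2.36 (1.39 to 4.19). The shallowest bin held 6 *Smo*-cKO UMIs and its interval includes 1.

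**Figure D2:**
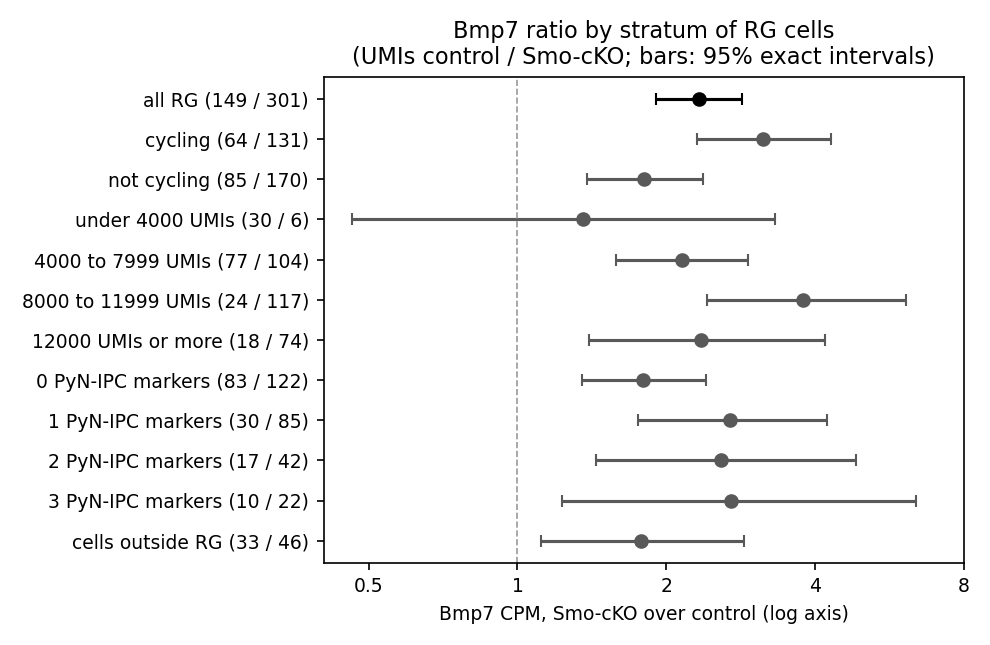
Ratio of *Bmp7* CPM, *Smo*-cKO over control, on a log axis with exact 95% intervals, for all RG cells and for strata of RG cells. The ratio is 2.33 in all RG cells, 3.14 in cycling and 1.81 in non-cycling RG cells, and lies above 1 in each of the 4 depth bins.

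*Bmp7* was higher in cells that carried many RG markers, over all kept cells whatever their class. In control the level was 0.391 CPM in cells with 0 of the 10 markers, 3.63 CPM with 4, 8.26 CPM with 7 and 6.07 CPM with all 10. In *Smo*-cKO it was 0.768, 2.94, 15 and 22.3 CPM at the same marker numbers. The order was steady in neither library: control stood at 2.08 CPM with 6 markers and was highest, at 11.5 CPM, with 9, and *Smo*-cKO stood at 3.96 CPM with 3 markers, above its level with 4. Depth moved with the number of markers, from a median of 3190 to 8514 UMIs in control and from 3779 to 10081.5 in *Smo*-cKO, and its part was not tested. Cells at the margin of the class, with only 3 markers or a lead of only 2, had 8 UMIs in 298 control cells and 10 in 146 *Smo*-cKO cells (ratio 2.23, 0.793 to 6.51). Cells just outside it, with a lead of 1, had 6 UMIs in 299 and 4 in 140 (1.27, 0.264 to 5.36). Away from the margin the ratio was 2.29 (1.86 to 2.82).

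Among RG cells, those that also carried markers of neuronal progenitors had less *Bmp7*. In control the level was 12.1 CPM in RG cells with 0 PyN-IPC markers, 7.75 with 1, 6.01 with 2 and 4.54 with 3. In *Smo*-cKO the corresponding levels were 21.8, 20.9, 15.5 and 12.3 CPM. The order was the same in both libraries, and the ratio between them was 1.80, 2.69, 2.58 and 2.70 at 0 to 3 markers. At 3 markers the levels rested on 10 UMIs in control (2.18 to 8.34 CPM) and 22 in *Smo*-cKO (7.69 to 18.6 CPM). Depth moved with these markers too, from a median of 4717 to 6370.5 UMIs in control and from 6776 to 9264 in *Smo*-cKO. The part of depth in this order was not tested. Across 0 to 3 MIPC markers the ratio was 2.40, 2.53, 2.27 and 1.46.

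**Figure D3:**
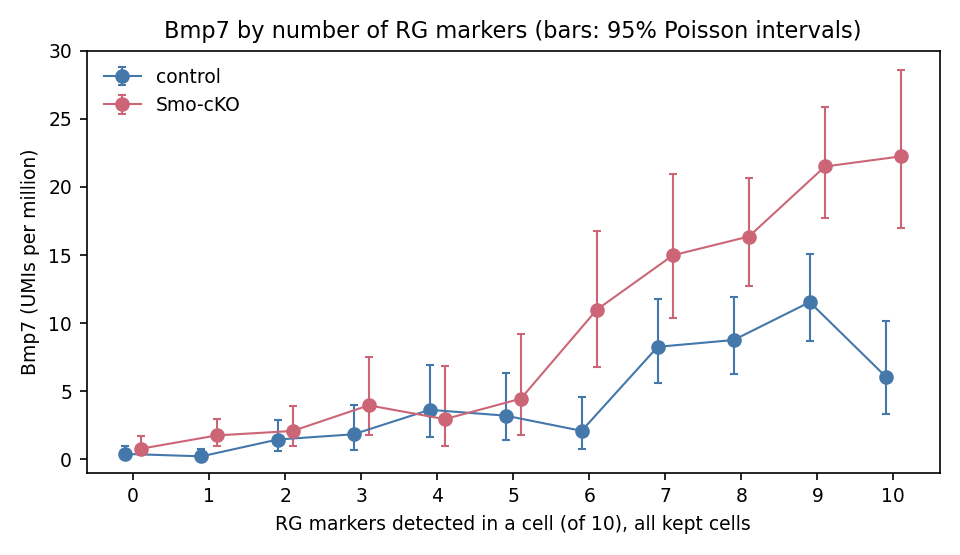
*Bmp7* level in CPM with exact Poisson 95% intervals against the number of RG markers detected in a cell, over all kept cells, for both libraries. In control it goes from 0.391 CPM at 0 RG markers to 6.07 CPM at 10, and in *Smo*-cKO from 0.768 to 22.3 CPM.

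The genes that accompanied *Bmp7* were sought by comparing, within each library, RG cells with a *Bmp7* UMI and RG cells without one. Positive cells were deeper (median 6066 against 5199 UMIs in control, 9218.5 against 7373 in *Smo*-cKO), so genes are compared by CPM. CPM does not match the cells for depth. Some ratios are therefore also given with the cells without *Bmp7* weighted to the depths of positive cells. The cycling share did not differ beyond counting error in control, at 41.6% (33.3 to 50.3) with *Bmp7* and 44.5% (42.7 to 46.3) without it. In *Smo*-cKO it was higher with *Bmp7*, at 43.0% (37.1 to 49.1) against 30.2% (28.0 to 32.4). Cycling RG cells were also deeper than non-cycling ones (median 9702 against 6979 UMIs in *Smo*-cKO). The part of depth in these shares was not tested. Of the genes with enough UMIs, 91 of 5339 (1.7%) had a CPM at least 1.5-fold higher in positive control cells and 49 (0.918%) at most 1/1.5 as high. The counts were 130 of 8692 (1.5%) and 81 (0.932%) in *Smo*-cKO. A gene was past the fold upward in both libraries in 6 of 5332 cases (0.113%) and downward in both in 3 (0.0563%).

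The 6 genes higher in positive cells of both libraries, named after their values were seen, included 2 of those that the naming rule had already picked in control. *Sparcl1*, which encodes a matricellular protein of astroglia and RG cells, had ratios of 2.29 (1.98 to 2.63) in control and 2.39 (1.81 to 3.12) in *Smo*-cKO. It was found in 55.5% of positive and 29.8% of negative control cells, but in only 5.15% and 3.22% in *Smo*-cKO. The *Smo*-cKO ratio rests on 82 UMIs in 14 positive cells. Without the positive cell with most of its UMIs, the *Sparcl1* ratio was 1.87 in *Smo*-cKO and 2.21 in control. *Luzp2*, a leucine zipper protein gene, had ratios of 2.63 (2.28 to 3.03) and 1.52 (1.37 to 1.70). It was found in 45.3% against 27.1% of control cells and 42.6% against 29.0% of *Smo*-cKO cells. Both kept ratios above 1.5 without cycling cells, at 2.32 and 2.98 for *Sparcl1* and 2.38 and 1.59 for *Luzp2*. The others were *Dtna* (dystrobrevin alpha, 1.55 and 1.64), the cyclin gene *Ccne2* (1.54 and 1.63) and the histone genes *Hist1h3e* (1.84 and 1.61) and *Hist1h4c* (1.55 and 1.90). Each of these 4 lost the fold in at least 1 library under another choice of cells. *Luzp2* lost it too, at 1.48 in *Smo*-cKO without the positive cell with most of its UMIs. Without cycling cells *Hist1h3e* stood at 1.04 in both libraries, *Hist1h4c* at 1.02 in control and *Ccne2* at 1.06 in *Smo*-cKO. With negative cells weighted to the depths of positive ones, *Ccne2* stood at 1.39 and *Hist1h3e* at 1.34 in *Smo*-cKO. *Sparcl1* (2.22), *Luzp2* (1.54), *Dtna* (1.67) and *Hist1h4c* (1.65) stayed above 1.5 there. Without the deepest 5% of cells *Dtna* stood at 1.33 in control, although without cycling cells it stood at 1.74 and 2.00. The 3 genes lower in both were *Mycn*, a growth-promoting transcription factor (0.587 and 0.642), the PyN-IPC marker *Mfap4* (0.558 and 0.656) and *Cplx2*, a regulator of synaptic vesicle fusion (0.619 and 0.645). *Mfap4* stood at 0.675 and 0.712 without the deepest cells, and *Cplx2* at 0.761 in *Smo*-cKO without cycling cells.

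The 10 genes highest with *Bmp7* in control were then read in *Smo*-cKO, whose cells the naming had not used. Of these, 9 had a ratio above 1 there and 2 a ratio of at least 1.5, with a median of 1.23. Over all genes 54.2% were above 1 and 0.619% at least 1.5, with a median of 1.01. Beside *Luzp2* and *Sparcl1* they included *Cox4i2*, a cytochrome c oxidase subunit (2.56 in control and 1.27 in *Smo*-cKO), *Slc38a3*, a glutamine transporter (2.25 and 1.03), the kinase anchor *Akap12* (2.1 and 1.20), *Trim9* (1.86 and 1.19), the outer RG gene *Ptprz1* (1.57 and 1.32), *Tnc* (1.66 and 1.34) and *Olig1*. *Tnc* is 1 of the RG markers used to choose the cells. *Olig1*, a glial lineage factor, had a ratio of 2.09 in control and 0.856 in *Smo*-cKO, and a single control cell held 37 of its UMIs. Without that cell the control ratio was 1.09.

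The 10 genes lowest with *Bmp7* in control included several genes of neurons and their progenitors. *Tubb3*, neuronal tubulin, had a ratio of 0.548, *Dcx*, a microtubule protein of migrating neurons, 0.585, *Elavl2* 0.541, *Sox11* 0.668, *Igfbpl1* 0.544, *Nr2f1* 0.531 and *Insm1* 0.595. The others were *1500015O10Rik* (0.494), *Ogn* (0.487) and *Hist1h2bc* (0.473). In *Smo*-cKO most of these genes stood nearer to 1, with ratios of 0.961 for *Tubb3*, 1.12 for *Dcx*, 1.10 for *Elavl2*, 1.01 for *Sox11* and 0.707 for *Insm1*, and a median of 0.952 over the 10.

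Naming in *Smo*-cKO gave a different set. Beside *Sparcl1*, the 10 highest held 6 replication-dependent histone genes, such as *Hist1h2ae* (2.17) and *Hist1h4c* (1.90), and *Top2a*, the topoisomerase of dividing cells (1.59). The 2 remaining were *Hgf*, hepatocyte growth factor (2.04), and *Ccdc163* (2.23, or 1.12 without the 1 cell that held 28 of its UMIs). In control 7 of the 10 were above 1 and 2 at least 1.5, with a median of 1.15, against 52.7% and 1.69% of all genes. Without cycling cells *Hist1h2ae* had a ratio of 0.823 and *Top2a* 0.699 in *Smo*-cKO, on 23 and 9 UMIs, while *Hist1h4c* had 1.54 on 16 UMIs and *Sparcl1* 2.98. In control *Hist1h2ae* then stood at 1.59, above its ratio of 1.28 over all RG cells. With negative cells weighted to the depths of positive ones, the *Smo*-cKO ratio was 1.75 for *Hist1h2ae*, 1.65 for *Hist1h4c* and 1.24 for *Top2a*. The 10 lowest held the neurogenic genes *Neurog2* (0.492, and 0.786 in control) and *Gadd45g* (0.427 and 0.738), which kept ratios of 0.511 and 0.503 in *Smo*-cKO without cycling cells. In control *Neurog2* then stood at 0.902 and *Gadd45g* at 0.733. The 10 lowest also held *Cdkn1c*, a cyclin-dependent kinase inhibitor (0.491), the imprinted *H19* (0.545), *Ptgds* (0.546), *Cebpb* (0.505), *Acad8* (0.479), *D8Ertd82e* (0.511), *Rhbdl3* (0.499) and the globin gene *Hbb-bs* (0.467). The control ratio of *Hbb-bs* was 0.0557, where 3 cells without *Bmp7* held 623, 790 and 1243 of its UMIs.

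**Figure D4:**
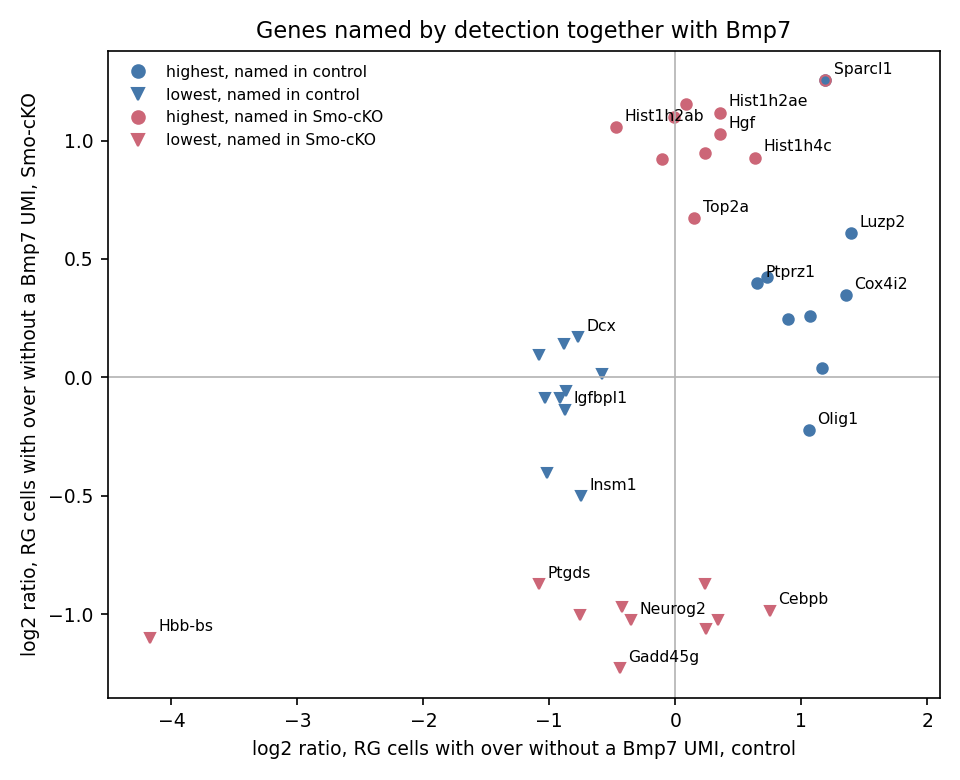
Each named gene by the log2 ratio of its CPM in RG cells with over RG cells without a *Bmp7* UMI, control on the horizontal and *Smo*-cKO on the vertical axis, without 1 gene that is not reported, with circles for the highest and triangles for the lowest genes and the color for the library that named them. *Sparcl1* lies high on both axes, most genes named in control lie near 0 on the vertical axis, and *Hbb-bs* lies far to the left.

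The gene lists were read in the same way. Of all tested genes 1.7% in control and 1.5% in *Smo*-cKO passed upward, and 0.918% and 0.932% downward. Of the PyN-IPC markers, 3 of 5 tested were at most 1/1.5 as high with *Bmp7* in control (median 0.595) and 3 of 6 in *Smo*-cKO (median 0.682), *Eomes* standing at 0.577 and 0.821. Without cycling cells *Eomes* stood at 0.816 in control and 1.04 in *Smo*-cKO. The outer RG list had 3 of 5 genes at least 1.5-fold higher in control, namely *Hopx* (1.53), the integrin *Itgb5* (1.64) and *Ptprz1* (1.57), and 0 of 6 in *Smo*-cKO, where *Hopx* stood at 1.08. In control *Hopx* stood at 1.35 without cycling cells. Without the positive cell with most UMIs of each gene, *Hopx* stood at 1.46, *Itgb5* at 1.53 and *Ptprz1* at 1.55. Of the astroglial list 2 of 7 passed in control (median 1.42), with the glutamate transporter *Slc1a2* at 1.81, and 1 of 9 in *Smo*-cKO (median 1.09), with *Slc1a2* at 0.986. Of the MIPC list 2 of 4 passed upward in control (median 1.48), the growth factor receptor *Egfr* (1.62, 1.17 to 2.19) and *Olig1*, whose ratio rests on 1 cell, and 0 of 3 in *Smo*-cKO (median 0.856). *Egfr* was also the 1 of 3 truncated RG genes that passed in control, and 0 of 5 passed in *Smo*-cKO. Without the positive cell with most of its UMIs *Egfr* stood at 1.36 in control, below the fold. The cycling list had 0 of 10 past the fold in control (median 1.11) and 2 of 10 in *Smo*-cKO (median 1.33), *Top2a* and *Cdk1* (1.5). *Top2a* stood at 1.24 in *Smo*-cKO with negative cells weighted to the depths of positive ones.

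Genes that receive or answer to BMP signals were too few to set apart from all tested genes, of which 1.7% and 1.5% passed upward. *Bmpr1a*, a type I receptor, had a ratio of 1.18 in control and 1.15 in *Smo*-cKO. *Id3* had 1.09 and 0.944, *Id1* 1.38 and 1.03, and *Bambi*, a pseudoreceptor, 1.28 and 1.49. Of the BMP targets 1 of 5 tested passed 1.5 in control, which was *Hopx* (1.35 without cycling cells), and 0 of 7 in *Smo*-cKO. Among SHH genes 0 passed in either direction of those tested. *Ptch1* in *Smo*-cKO fell short of the count needed, with 22 UMIs in positive cells, 14 of them in 1 cell, and its ratio was 5.34 with and 1.95 without that cell. *Smo* itself had 10 UMIs in the positive control cells (10.9 CPM, against 13.9 CPM in negative ones) and 0 in the 272 positive *Smo*-cKO cells, where a 3-cell limit allows 1.10% of cells with a UMI and the exact upper bound is 1.35%.

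Other ligands of the family were as sparse as *Bmp7* or sparser in UMIs. *Bmp3*, which can oppose other BMPs, was the only other ligand with at least 50 UMIs in RG cells and was lower in *Smo*-cKO, with 107 UMIs (5.69 CPM) in control and 29 (1.78 CPM) in *Smo*-cKO, a ratio of 0.312 (0.200 to 0.475). *Gdf5* had 8 and 21 UMIs (3.03, 1.29 to 7.90). *Bmp2* had 2 in each library, *Bmp5* 1 and 0, and *Bmp6* 3 and 0, which is too few to compare. Of the 10 ligands listed besides *Bmp7*, these 5 were in the mouse counts used here, and the others could not be read.

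Of the 6 receptors tested 0 passed 1.5-fold in either direction (median ratio 0.993), a count that the background of 6.61% and 5.5% of all genes would also give. *Bmpr1a* stood at 63.4 CPM in control and 67.1 CPM in *Smo*-cKO (1.06, 0.974 to 1.15), *Bmpr1b* at a ratio of 1.24 (1.03 to 1.49), and *Bmpr2*, the type II receptor, at 0.801 (0.743 to 0.862). Like *Bmp7*, *Bmpr1b* lay mainly in RG cells, with 12.2 CPM there against 0.904 CPM in PyN-IPCs of control and 15.2 against 0.189 CPM in *Smo*-cKO. *Bmpr1a* was broader, at 35.6 CPM in control and 44.0 CPM in *Smo*-cKO PyN-IPCs. The SMAD transducers had 0 of 3 past the fold (*Smad1* 0.989, *Smad5* 0.930, *Smad4* 0.888). Of the convertases that can cleave BMP precursors, *Furin* stood at 0.920 and *Pcsk7* at 1.5.

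Antagonists differed among themselves. Of 8 tested, *Nbl1*, a secreted BMP antagonist, was higher in *Smo*-cKO (3.14, 2.70 to 3.67), while *Fst*, Follistatin (0.404, 0.284 to 0.567), and *Chrdl1*, a Chordin-like antagonist (0.372), were lower. *Nog*, Noggin, stood at 1.27 (1.12 to 1.44), *Crim1* at 1.49 and *Chrd* at 0.729. The targets were as uneven: 2 of 8 passed 1.5-fold upward and 0 downward. *Id3* was at 135 CPM in control and 479 CPM in *Smo*-cKO RG cells (3.56, 3.40 to 3.72), and *Hopx*, an outer RG gene listed among the targets, at 518 and 949 CPM (1.83, 1.79 to 1.88). *Id1* (1.01), *Id2* (1.12) and *Id4* (1.01) did not pass, nor did *Smad6* (0.854), *Smad7* (0.932) and *Bambi* (0.728), which are inhibitors induced by BMP signals. *Id3* was higher in *Smo*-cKO RG cells without a *Bmp7* UMI too, at 484 CPM against 457 CPM in those with one. *Msx1* had 3 and 24 UMIs, under the limit for testing.

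**Figure D5:**
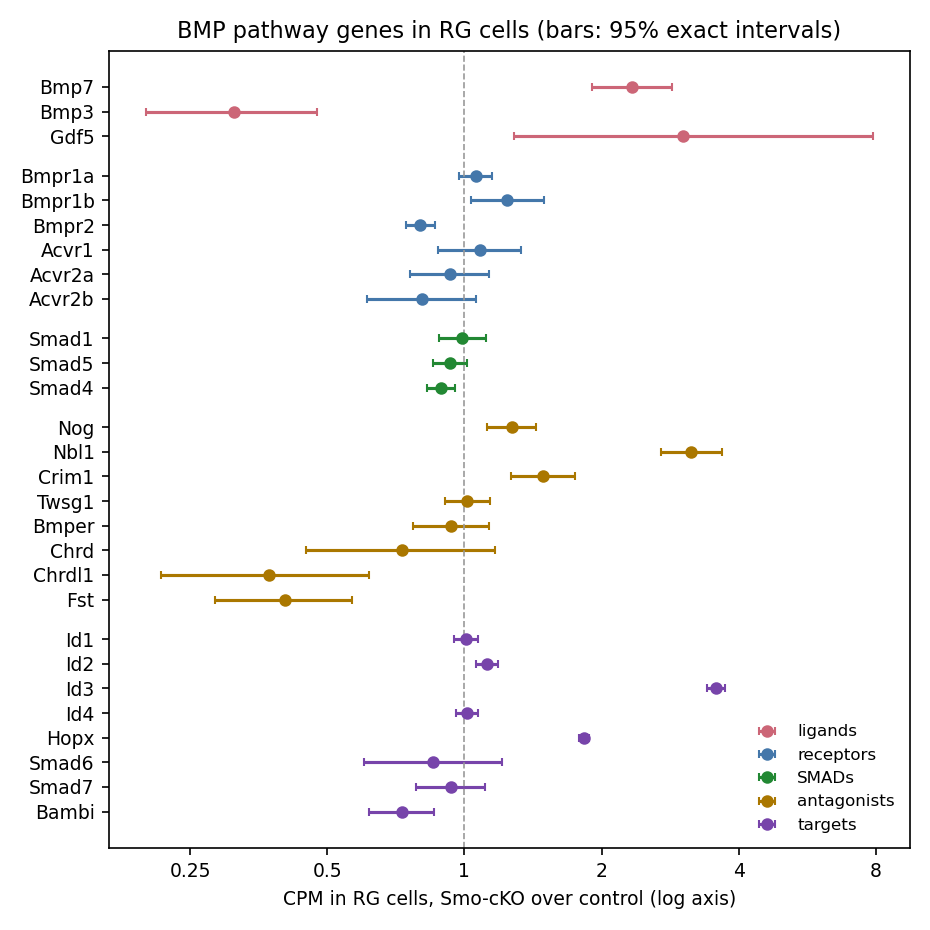
Ratio of CPM in RG cells, *Smo*-cKO over control, on a log axis with exact 95% intervals, for *Bmp7* and the BMP ligands, receptors, transducers, antagonists and targets with at least 50 UMIs, and for *Gdf5*, which had fewer. *Bmp7* (2.33), *Id3* (3.56) and *Nbl1* (3.14) lie to the right, *Bmp3* (0.312), *Fst* (0.404) and *Chrdl1* (0.372) to the left, and the receptors lie close to 1.

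In the SHH list 3 of 8 genes passed 1.5-fold downward and 0 upward. These were *Smo*, at a ratio of 0.0268 (0.00974 to 0.0591), the transcription factor *Gli1* (100 UMIs in control against 1) and the receptor and target *Ptch1* (0.107). *Gli3*, the main repressor of the pathway, stood at 1.11. Genes of the medial wall and hem, the cortical border where BMP ligands are made, had 3 of 6 past the fold upward, *Lef1* (4.01), *Rspo1* (3.29) and *Emx2* (1.61). Of the same 6 genes 1 passed downward, where 6.61% of all genes passed upward and 5.5% downward. The list thus went both ways, and the part of its genes in the *Bmp7* ratio was not tested.

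The genes most like *Bmp7* across the 5 classes with at least 50 cells in each library (10 points) were ranked by Pearson's r of log2(CPM + 1). The points share libraries and depth, and r is given as a description. The highest were *Rarres2* (0.968), which encodes chemerin, *Efhd1* (0.968), the peptide ligand gene *Apln* (0.967), *Suclg1* (0.963), *Zfp365* (0.962), *Gm20515* (0.960), *Flnc* (0.960), *Chst3* (0.958), *Gm17455* (0.957) and *A730056A06Rik* (0.956). Among 12688 genes 174 (1.37%) reached 0.9. *Rarres2* was at 2.71 CPM in control and 5.88 CPM in *Smo*-cKO RG cells, with at most 0.411 CPM in any other class. Only 1 of these 10 was among the 10 most like genes in control alone and 1 in *Smo*-cKO alone, so the order within the list rests on few points.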

How the data were processed

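Single-cell RNA sequencing libraries were made by the authors on the 10X Genomics Chromium platform, and the deposited tables hold raw UMI counts of each gene in each cell. The submitters' processing notes name Cell Ranger, StringTie, Seurat 3 and mm10; further versions are not given in the sources used here. Cells with 750 to 5000 genes and less than 10% mitochondrial UMIs were kept, the limits stated in the study's methods. Cell classes were set by detected markers, and no annotation of cells was used here. UMIs were summed over the cells of a class and library and divided by their total (CPM) with exact Poisson intervals. Shares have Clopper-Pearson, differences of shares Newcombe, and ratios conditional binomial 95% intervals (python 3.11.15, numpy 2.4.6, scipy 1.17.1, matplotlib 3.10.9), and scripts were tested on simulated data. Where 0 cells were positive, the upper limit was set at 3 positive cells. Shares at 2900 UMIs are hypergeometric expectations over cells of that depth. Ratios between genotypes used genes with at least 50 UMIs in RG cells. Genes detected together with *Bmp7* needed at least 20 observed and 20 expected UMIs in positive cells, with *Bmp7* left out of the totals. The 10 with the highest lower bound and the 10 with the lowest upper bound in 1 library were named and read in the other, and the genes past 1.5-fold in both were added after their values were seen. Besides *Bmp7*, all genes of the pathway and marker lists could be named, and the 10 genes with the highest r. The members and lists were chosen with earlier results of these data known. Of the mouse symbols, 16568 were in GENCODE M21, used for the position of *Bmp7*. The ferret cells form 2 barcode sets that could not be tied to samples. Genes that met the naming rule or belong to a list but are not reported here remain in the counts and medians.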

Additional observations from a re-analysis of the deposited data

Results flagged for a closer look

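The *Bmp7* level of non-cycling over cycling RG cells lay on opposite sides of 1 in the libraries, at 1.47 in control and 0.845 in *Smo*-cKO. With 1 library per genotype the difference was not tested.

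Of the genes named for their detection with *Bmp7*, 12 had a ratio of positive over negative RG cells above 1 in one library and below 1 in the other. Above 1 in control and below it in *Smo*-cKO were *Cebpb* (1.68 and 0.505), *Acad8* (1.18 and 0.479), *Cdkn1c* (1.27 and 0.491), *H19* (1.18 and 0.545) and *Olig1* (2.09 and 0.856). Below 1 in control and above it in *Smo*-cKO were the neuronal genes *Dcx* (0.585 and 1.12), *Elavl2* (0.541 and 1.10) and *Sox11* (0.668 and 1.01), and the histone genes *Hist1h1b* (0.931 and 1.89), *Hist1h2ab* (0.721 and 2.08), *Hist1h2bc* (0.473 and 1.07) and *Hist1h2bl* (0.992 and 2.14). Some of these rest on single cells. Without the positive cell with most of its UMIs, *Cdkn1c* stood at 0.429 in control and *Sox11* at 0.967 in *Smo*-cKO. Both ratios of each of these genes then lay below 1. *Olig1* stood at 1.09 in control without such a cell. For *Cebpb*, a transcription factor gene, the intervals of both ratios left out 1, which held for 1 of the 12. The difference was not tested for any of them.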

How the results depend on the processing

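The *Bmp7* ratio between genotypes in RG cells was 1.81 without cycling cells and 3.14 in cycling cells alone, and stayed between 2.12 and 2.41 under 13 other alternatives. The difference in positive RG cells, 9.30 percentage points, was 7.22 with a second RG marker list, 6.84 without cycling cells, 14.3 in cycling cells alone, 2.83 at 2900 UMIs per cell and 1.02 when 2 UMIs were required. At 2900 UMIs, 2.37% of control and 5.2% of *Smo*-cKO RG cells were positive, by construction fewer. The number of genes at least 1.5-fold higher with *Bmp7* was 91 in control, and 23 with a minimum of 50 UMIs, 273 with a minimum of 10 and 176 with the second RG list. The number lower was 49, against 12, 211 and 139. In *Smo*-cKO 130 were higher, against 30 and 264 at these minimums and 79 without cycling cells, and 81 were lower, against 14, 226 and 192 with the second list. The median in *Smo*-cKO of the 10 lowest genes of control, 0.952, was 0.60 with the second list and 1.06 without cycling cells, which turns its direction, and the median in control of the 10 highest of *Smo*-cKO, 1.15, was 0.924 without cycling cells. Minimums change how many genes are tested; the cause of the other shifts was not tested. Of the 10 genes most like *Bmp7*, 1 remained among the 10 highest in control alone, 1 in *Smo*-cKO alone and 2 with classes split by cycling. Of 118 alternatives in all, 91 left the value within its error or within 1.5-fold. Alternatives without the deepest 5% of cells, without single cells, away from the class margin and with split classes were chosen after seeing the data. No paired analysis was possible because each genotype had 1 library. The planned ferret alternatives were not run.

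*Bmp7* gave 1 UMI in most positive cells, so absence in a cell was not detectable at this depth, and the ratios of genes detected with it rest on 137 and 272 cells.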

Other observations

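Other BMP genes were read in the ferret cortex at E39, from 1 embryo whose cells fall in 2 barcode sets that share 38 barcodes, with 378 and 562 RG cells by the same markers (median 3021.5 and 4182 UMIs). *BMP8A* was found in 5 and 13 RG cells, *BMP2* and *BMP3* in 2 and 1 each, *BMP6* in 0 and 2, and *BMP4*, *BMP5* and *GDF5* in 0 of both sets, where a 3-cell limit allows 0.794% and 0.534% of cells with a UMI at these depths (exact upper bounds 0.971% and 0.654%). The receptors were detected more widely, *BMPR2* in 40.5% and 54.6% of RG cells, *BMPR1A* in 20.4% and 31.9% and *BMPR1B* in 14% and 16.9%. Among targets *ID4* was found in 89.9% and 92.5%, *HOPX* in 82.8% and 77.6%, *ID1* in 53.4% and 49.1%, and *ID3* in 1.32% and 1.07%. Since the sets differ in depth and come from 1 embryo, their differences are not read.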
